A study of Mus musculus with 3 samples.

Results

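In the list of MafG binding summits from mouse embryonic fibroblasts treated with diethyl maleate (DEM), 223 of 1246 summits were strong, stood alone and had no counterpart in vehicle-treated cells. They were chosen by 3 criteria: a DEM score of at least 20, no vehicle summit within 500 bp, and no other DEM summit within 100 kb. A summit is the position where the signal of a called peak is highest. The score is the −log10 of the p or q value that the peak caller gave to the peak, so a higher score means a call that departs further from background. The comparison set was made of the 131 isolated DEM summits of the same minimum score that did have a vehicle summit within 500 bp, called shared below. Because the criteria used the DEM score and the vehicle calls, both of these are given as descriptions with no test.

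Both libraries came from chromatin immunoprecipitation with sequencing, carried out with an antibody against MafG. The cells of either group were fibroblasts labelled MafF-/-::MafG-/-::MafK-/-, which thus lack all of the small Maf genes, and carried a tethered Nrf2-MafG construct. The construct is written T-N2G in the sample titles and T-NG2 in the genotype label. One group received vehicle and the other 100 µM DEM, each for 4 hours, with 1 library per group. The series holds 3 libraries in all, and values of the input library were not analysed here. The sources used here do not give the promoter of the construct, the number of cell clones or the read depth. Depth is thus unknown, and the values have no replicate error. Binding in cells without the construct was not analysed here.

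Nrf2 switches on the genes with which cells answer electrophiles and oxidants. In resting cells the adaptor Keap1 directs it to degradation, and electrophiles such as DEM, which depletes glutathione, modify Keap1 and let Nrf2 accumulate. Nrf2 binds DNA as a heterodimer with MafF, MafG or MafK at antioxidant response elements, which lie near genes for detoxification, glutathione synthesis and iron and heme handling. In the tethered protein the partner is fixed, and with the MafG gene deleted it is the remaining source of MafG sequence for the antibody. The antioxidant response element was not searched for and sites were not assigned to genes, since sequence and gene positions in mm9, the build of the lists, were not used here. Sites are named by their chromosome and 1-based mm9 position.

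The sites called only with DEM were most of the strong isolated calls, but a smaller share than in the whole DEM list. Of the 354 isolated DEM summits with a score of at least 20, 223 (63.0%, exact 95% interval 57.7 to 68.0%) had no vehicle summit within 500 bp. Without the isolation criterion the share was nearly equal, at 312 of 491 summits (63.5%). It was 85.4% over the whole DEM list, where 1064 of 1246 summits lacked a vehicle counterpart, and 85.5% over the 921 isolated summits of any score. The intervals cover counting error over sites only. As these shares restate the criteria, nothing about the treatment is read from them.

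DEM-only and shared sites stood alone in similar shares. Of the 312 strong DEM-only summits, 71.5% (95% interval 66.1 to 76.4%) had no other DEM summit within 100 kb. The share was 73.2% of the 179 strong shared summits (66.1 to 79.5%) and 73.9% of the whole DEM list (71.4 to 76.3%). These intervals overlap one another.

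The DEM-only sites mostly scored lower than the shared ones, although the ranges overlapped. Their scores ran from 20.1 to 173.1, with a median of 30.6 and quartiles of 24.1 and 42.7. Shared sites ran from 24.0 to 257.6, with a median of 79.7 and quartiles of 48.9 and 124.8. Of the DEM-only sites, 168 reached the lowest shared score, 38 reached the lower quartile of the shared scores and 10 reached their median. In the other direction, 5 of the 131 shared sites scored below the median DEM-only site, and 19 scored above the highest one. The top decile of the DEM list, 124 summits, held 12 of the DEM-only sites (5.38%) and 73 of the shared ones (55.7%). Ranks of all 491 strong DEM summits had a lower quartile of 123.5, close to the limit of this decile. The 89 strong DEM-only summits that had a close neighbour scored much like the isolated ones, with a median of 32.1 and a range of 20.1 to 110.2.

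**Figure D1:**
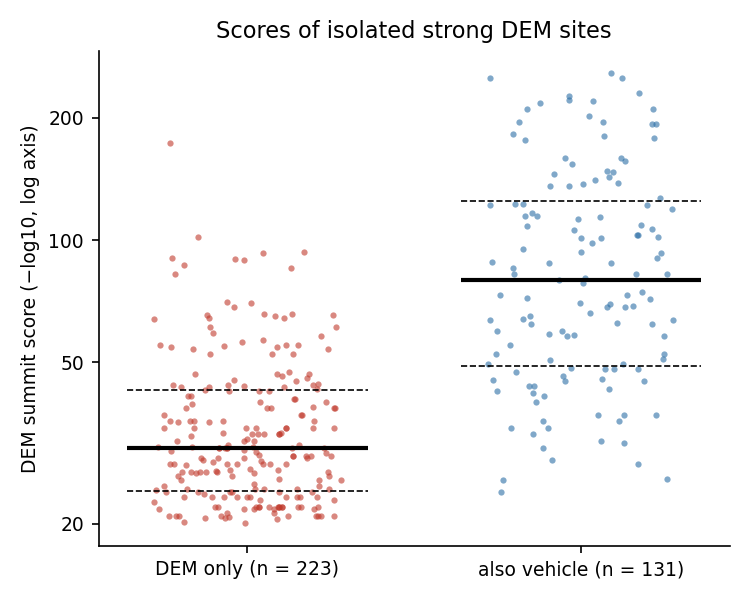
Each point is 1 isolated DEM summit with a score of at least 20, and the vertical log axis gives its DEM score (−log10). Solid lines are medians (30.6 for DEM only, 79.7 for sites also called with vehicle) and dashed lines are quartiles; most DEM-only points lie under the lower quartile of the other set, and 1 stands apart at 173.1.

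Read by score band, the DEM-only share of isolated summits fell in steps. Between 20 and 30 it was 106 of 111 summits (95.5%, 95% interval 89.8 to 98.5%), and between 30 and 40 it was 54 of 66 (81.8%, 70.4 to 90.2%). From 40 to 60 it was 40 of 69 (58.0%, 45.5 to 69.8%), and from 60 to 100 it was 21 of 54 (38.9%, 25.9 to 53.1%). At 100 and above, 2 of 54 isolated summits were DEM-only (3.70%, 0.452 to 12.7%). The band from 60 to 100 is the last in which DEM-only sites were common, and 29 of the 131 shared sites lay in the band from 40 to 60, where both kinds were present in number. Summits with another DEM summit within 100 kb gave DEM-only counts of 38 of 39, 23 of 23, 22 of 30, 5 of 18 and 1 of 27 in the same bands, or 97.4, 100, 73.3, 27.8 and 3.70%. Their share was higher than that of isolated summits in the 3 bands from 20 to 60 and lower from 60 to 100. These differences were not tested.

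**Figure D2:**
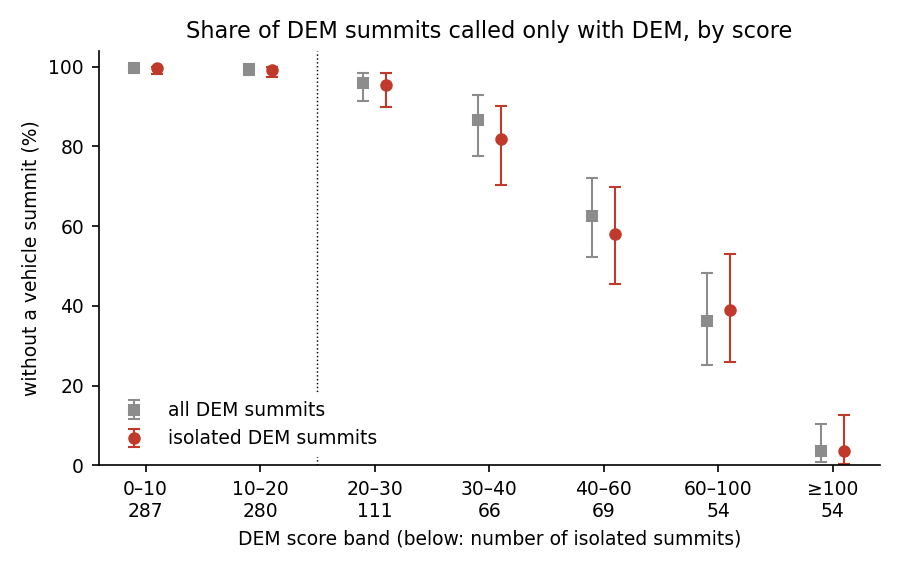
The horizontal axis gives bands of DEM score with the number of isolated summits in each, and the vertical axis the percentage without a vehicle summit within 500 bp; bars are exact 95% intervals and the dotted line marks the score minimum of 20. The share falls from 95.5% in the band from 20 to 30 to 3.70% at 100 and above, for isolated summits (circles); squares are all DEM summits, which include the isolated ones.

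The strongest isolated DEM-only site lay at chr13:12906338. Its score of 173.1 ranked 29 in the DEM list, and the next member scored 101.9. The nearest other DEM summit stood 212 kb away at 13118251 (score 82.6) and was shared, with a vehicle summit at 13118280 (score 7.59). Thus the stronger DEM call of these neighbours was the one without a vehicle call. The 10 isolated shared sites closest to it in DEM score (154.0 to 193.4) had vehicle scores of 7.88 to 44.3, with a median of 23.9.

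The second site, at chr9:42269588, scored 101.9 and ranked 78. Its nearest DEM neighbour, at 41289900 (score 46.3), stood 980 kb away and was itself a DEM-only member. The site at chr12:34054590 followed with 93.3, then chr10:69864951 with 93.0. The chromosome 10 site had the shortest distance to a vehicle summit of all members, 114 kb, to a vehicle summit at 69750669 with a score of 17.2. That shared neighbour scored 58.7 with DEM, less than the DEM-only site beside it.

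A group of 6 further sites scored between 82.6 and 90.2. They were chr4:106286350 (90.2), chr5:142997589 (89.9), chr15:77712380 (89.5), chr3:154898621 (87.0), chr3:155033880 (85.4) and chr3:51474861 (82.6). The neighbour of the chromosome 5 site, 568 kb away at 143565605, was shared and had a DEM score of 25.6 and a vehicle score of 2.28, near the lower end of the vehicle list. The first pair named on chromosome 3 stood 135 kb apart and were each other's nearest summit. For the other 5 sites the nearest vehicle summit stood 1.69 to 10.1 Mb away.

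The next 10 sites by rank scored 64.2 to 70.3. Those at chr5:43746574, chr13:57119235 and chr7:130455569 scored 70.3, 70.0 and 68.4. Sites at chr8:109927536, chr1:151873539, chr7:111009608 and chr17:25651189 followed, with scores of 65.4 to 65.6. The last 3 were chr6:4040649 (64.9), chr15:5185775 (64.2) and chr2:118667703 (64.2), and the nearest DEM summit of each was a shared one with a higher score, of 210.6, 114.6 and 140.8. The 20 highest members were spread over 14 chromosomes.

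At the lower end, the members just above the score minimum lay at chr5:118417747 (20.1) and 140446207 (20.2), chr6:5533167 (20.6), and chr19:59666137 and chr1:141173666 (both 20.7). The isolated DEM-only summits just below it scored 19.7 to 19.9 and lay at chr9:21043285, chr5:24093174, chr4:66477834, chr6:100375209 and chr11:7323771. The last of these is tied with other summits. In all, 564 isolated DEM-only summits scored under 20, so the minimum divides a continuous range. On the isolation criterion, the members closest to the limit stood 100.3, 102.3 and 103.8 kb from another DEM summit. The strong DEM-only summits just left out stood 99.6, 96.0 and 95.6 kb from one, and the first of them, at chr7:57119225, scored 85.5.

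Many members had exactly the same score to the last deposited digit. The 223 members held 125 distinct scores, and 135 members shared a score with another member, against 25 of the 131 shared sites. Ties were not particular to the members. The whole DEM list held 510 distinct scores in 1246 summits, and the vehicle list 117 in 182. The most frequent value, 22.0, was held by 14 members, and 23.2 by 8. Of the 125 scores, 26 also occurred among the shared sites, in 62 members and 31 shared sites. For example, the score of 30.6 was held by 7 members and 1 shared site. Order among tied sites is therefore not resolved by the score.

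A vehicle score can be given for the shared sites only, as they were chosen for having a vehicle call. Their vehicle scores therefore do not tell what vehicle signal the DEM-only sites had. Over the 131 shared sites the vehicle score ran from 1.71 to 72.2 with a median of 9.55, and it rose with the DEM score (Spearman's rho 0.70 over 131 sites of the same libraries, a description). In shared sites with a DEM score of 20 to 30 the vehicle scores were 2.28 to 3.93 with a median of 3.14. From 30 to 40 the median was 5.79, from 40 to 60 it was 7.40, from 60 to 100 it was 8.66, and at 100 and above it was 17.4. The lowest score in the vehicle list was 1.71. Its lower quartile was 6.64. Of the members, 106 fell in the band from 20 to 30, which held 5 shared sites. An absent vehicle call means that a site was not listed, not that it was unbound.

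Within the shared sites this relation had exceptions. The shared site at chr18:39959908 had a DEM score of 73.0 and a vehicle score of 2.56, and the one at chr9:44669417 had 45.6 and 1.71. The 2 DEM-only sites at or above a score of 100 have no vehicle score. They stood in a band where the 52 shared sites had vehicle scores of 3.93 to 72.2. For the chromosome 9 site at 42269588, the 10 shared sites closest in DEM score had vehicle scores of 5.83 to 20.2. With 1 library per condition, the spread of vehicle scores between repeated libraries is unknown.

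**Figure D3:**
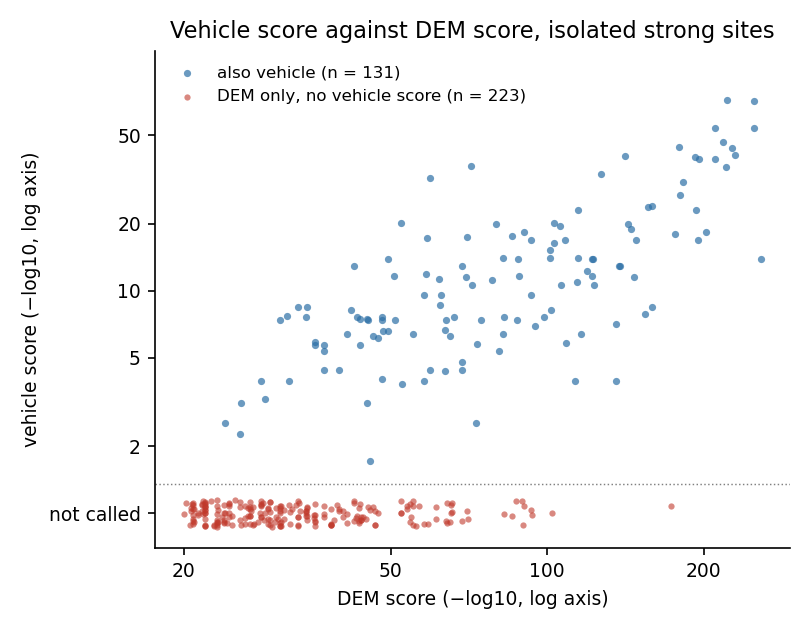
The log axes give the DEM score and the vehicle score (both −log10) of the 131 shared sites (blue); the 223 DEM-only sites (red) have no vehicle score and are drawn at their DEM score in the strip under the dotted line, with random vertical scatter. Blue points at DEM scores of 20 to 30 have vehicle scores of 2.28 to 3.93, and the red point at 173.1 lies under blue points with vehicle scores of 7.88 to 44.3.

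Sites called only with DEM occurred on all 20 chromosomes that carry summits. Chromosome 8 held the most, 19 of 223 (8.52%, 95% interval 5.21 to 13.0%), followed by chromosome 2 with 17 and chromosomes 1 and 7 with 16 each. Chromosome 16 held 1 (0.448%, 0.0114 to 2.47%), and chromosomes 14 and X held 6 each. Of the whole DEM list, 5.54% lay on chromosome 8 and 3.61% on chromosome 16. Chromosome 2 held 7.62% of the members and 6.18% of the list. For chromosome 1 these shares were 7.17 and 6.74%, and for chromosome 7 they were 7.17 and 6.18%. For chromosome 14 they were 2.69 and 2.65%, and for X they were 2.69 and 1.85%. The intervals of the member share and the shared-site share overlapped on all 20 chromosomes.

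DEM-only sites outnumbered shared ones on 18 chromosomes, equalled them on chromosome 4 (10 each) and were fewer on chromosome 16. With a score minimum of 10 the order on chromosome 16 turned, to 12 DEM-only and 6 shared sites. The DEM-only share over all chromosomes also rose at that minimum, to 79.0%. With minimums of 30 and 50 the order on chromosome 16 stayed, at 0 against 6 and 0 against 4. On chromosome 12 all 10 isolated strong sites were DEM-only (100%, 69.2 to 100%), and on chromosome 16 it was 1 of 7 (14.3%, 0.361 to 57.9%). These were the only chromosomes whose interval did not hold the overall share of 63.0%, among 20 compared. Among DEM summits of any score, 45 of 46 on chromosome 12 were DEM-only (97.8%) and 34 of 45 on chromosome 16 (75.6%). Over the whole DEM list the share was 85.4%. The high share on chromosome 12 was thus not particular to its isolated strong sites. The vehicle list held 1 summit on chromosome 12 and 11 on chromosome 16. No test over chromosomes was made, and the lists were not scaled to chromosome length.

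The 10 members on chromosome 12 scored 21.3 to 93.3 with a median of 32.6, near the median of all members. After the site at 34054590, the highest were those at 82849208 (53.7) and 74190059 (43.9). The single strong shared summit of chromosome 12, at 105238952 (DEM score 145.2), had a closer neighbour and so was not in the comparison set. The 1 member on chromosome 16, at 90221305, scored 24.0, whereas the 6 shared sites there scored 30.6 to 159.2. Without the isolation criterion, chromosome 16 had 5 DEM-only and 11 shared strong sites, and chromosome 12 had 13 and 1.

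**Figure D4:**
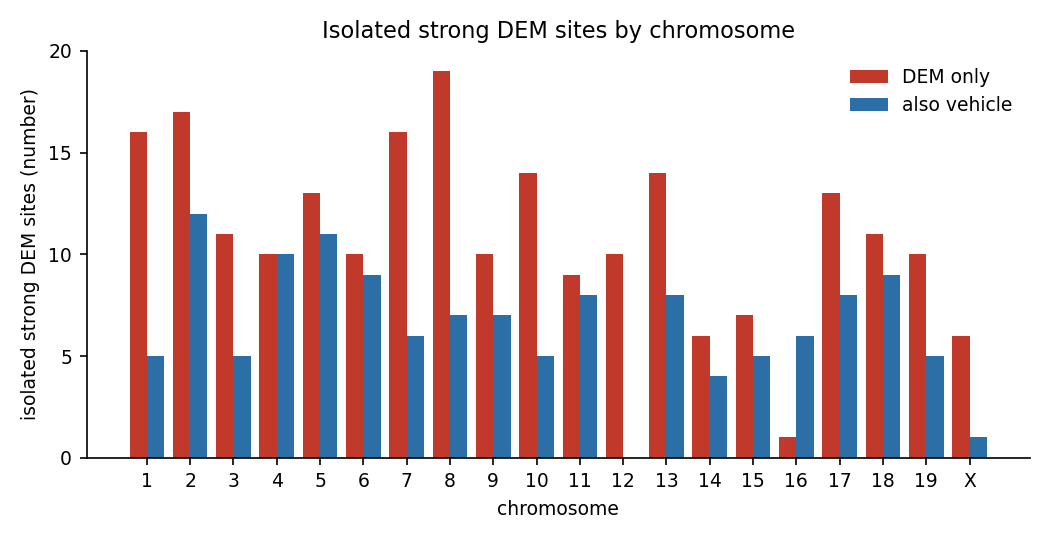
Bars give the number of isolated DEM summits with a score of at least 20 on each chromosome, called only with DEM (red) or also with vehicle (blue). Chromosome 8 holds the most DEM-only sites (19), chromosome 12 has 10 with no blue bar, and chromosome 16 has 1 beside 6 shared sites.

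Lower scores of the DEM-only sites were found on each chromosome that could be compared. The median DEM-only site scored below the median shared site on 19 of 19 chromosomes with both kinds. The X chromosome held 1 shared site. Chromosomes of the same libraries do not repeat the result, so the tally is a description. Median member scores ran from 24.0 on chromosome 16, from its single site, to 46.7 on chromosome 15, where the highest of 7 members scored 89.5. Chromosome 8, with the most members, had a median of 39.8 and a highest score of 65.6. On the X chromosome the 6 members stayed between 22.0 and 35.6. The 11 members on chromosome 18 had a median of 30.8 and a highest score of 55.2.

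Median spacing along the chromosomes was wider for the DEM-only sites than for the shared ones. The nearest other DEM summit stood a median of 709 kb away, with quartiles of 312 kb and 1.29 Mb, against a median of 462 kb and quartiles of 225 kb and 1.03 Mb for shared sites. The difference was not tested. The criteria set a minimum of 100 kb for both sets, and the median over all 921 isolated DEM summits was 628 kb. That value lies within the 95% interval of the member median, 610 to 839 kb, which covers counting error over sites only. No other DEM summit lay within 1 Mb of 81 of the 223 members (36.3%, 95% interval 30.01 to 43.0%) and of 34 of the 131 shared sites (26.0%, 18.7 to 34.3%), so these intervals overlap. The most remote members lay at chr13:71374408 (8.06 Mb from the next DEM summit, score 23.7), chr8:3413072 (7.85 Mb, 42.5) and chr12:40974726 (6.92 Mb, 34.5). The least remote were chr10:66488854 (100.3 kb, score 58.1), chr8:96786740 (102.3 kb, 45.7) and chr1:151873539 (103.8 kb, 65.5).

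**Figure D5:**
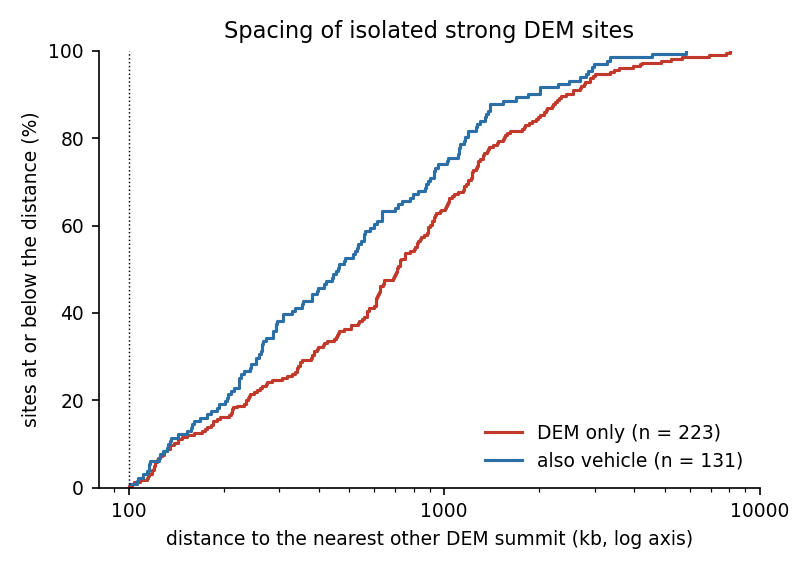
Curves give the cumulative percentage of sites whose nearest other DEM summit lies at or below the distance on the horizontal log axis (kb), for DEM-only (red) and shared (blue) isolated strong sites; the dotted line is the isolation limit of 100 kb. The red curve reaches its median at 709 kb and the blue one at 462 kb.

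The neighbours of the members were set beside those of other DEM summits. The nearest other DEM summit had a median score of 15.9 (range 2.25 to 250.3) and scored at least 20 in 93 of 223 cases (41.7%, 95% interval 35.2 to 48.5%), against 39.97% over the whole DEM list and 36.6% for the shared set. It was a shared site in 42 cases (18.8%, 13.9 to 24.6%), against 15.7% over the whole DEM list and 12.2% (7.15 to 19.1%) for the shared set. In 44 cases (19.7%, 14.7 to 25.6%) it was another member, against 19.8% for the shared set and 14.3% over the whole DEM list. By the isolation criterion, a summit with another DEM summit within 100 kb cannot have a member as its nearest. That lowers the whole-list share, so nothing is read from its difference to the member share. The median neighbour of a shared site scored 15.2.

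In 12 pairs, 24 members were each other's nearest DEM summit. The pairs stood 118.6 kb to 1.33 Mb apart, and 4 stood within 200 kb. These were at chr2:151931196 and 152049761 (scores 44.9 and 25.6), chr17:6312922 and 6433061 (30.6 and 43.9), chr12:74190059 and 74311319 (43.9 and 23.3), and chr3:154898621 and 155033880 (87.0 and 85.4). The chromosome 3 pair had the highest lower score of the 12 pairs, and its members differed by 1.58 score units.

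Distances to vehicle summits were large, for members and for other DEM summits. The nearest vehicle summit of a member stood a median of 3.36 Mb away, with quartiles of 1.15 and 7.65 Mb. Over all 921 isolated DEM summits, shared ones included, the median was 2.87 Mb. For the 89 strong DEM-only summits with a close neighbour it was 2.26 Mb. These differences were not tested. As each of the 182 vehicle summits lay within 500 bp of a DEM call, the isolation criterion keeps every member about 100 kb or more from a vehicle call. A vehicle summit lay within 1 Mb of 47 members (21.1%), within 5 Mb of 143 and within 10 Mb of 178. These counts were not made for other DEM summits, so nothing particular to the members is read from them. Quartiles of the distance were 0.305 and 8.59 Mb for the 89 strong DEM-only summits with a close neighbour. For the whole DEM list, shared summits included, they were 0.357 and 6.94 Mb. The closest members were the chromosome 10 sites at 69864951 (114 kb) and 83725889 (126 kb) and the chromosome 13 site at 45719465 (127 kb, score 35.6). That chromosome 13 site stood beside a shared summit at 45846793 with a DEM score of 231.1 and a vehicle score of 29.5. The farthest were at chr12:8083048 (97.2 Mb) and 16860389 (88.4 Mb) and on the X chromosome at 157767501 (86.5 Mb), chromosomes that held 1 and 2 vehicle summits.

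For comparison, the 10 highest isolated shared sites scored 210.6 to 257.6 with DEM. The first was at chr17:82776775 (257.6), with a vehicle score of 13.9, and the next were at chr4:14826091 (250.3; vehicle 54.0) and chr2:76546779 (250.2; vehicle 71.1). The others lay at chr15:97617310 (230.03), chr9:122380885 (226.7), chr19:10053131 (221.8), chr6:31767832 (220.3) and 5380165 (210.6), chr7:52716356 (217.4) and chr1:38606298 (210.6). All 10 scored above the highest DEM-only site. DEM-only members near the score minimum were the nearest neighbours of some: chr6:5533167 (score 20.6) was the nearest DEM summit of the site at 5380165, 153 kb away, and chr4:15241693 (22.6) that of the site at 14826091, 416 kb away.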

How the data were processed

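ChIP-seq summit lists of 1 vehicle and 1 DEM library were used. They are in mm9, and MACS2 2.1.1.20160309 and Bowtie2 2.2.9 are listed, per the submitters' processing notes. Each score is a −log10 value from the authors' peak caller; whether of p or q, the calling threshold, duplicate handling and the use of input are not given in these sources. Scores depend on depth and were not compared between libraries as levels.

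Distances were computed between summits on the same chromosome, and tied scores take the best rank of their tie. Shares carry exact (Clopper-Pearson) 95% intervals. With 1 library per condition, no test was made. The sites and criteria were chosen with earlier results of these data known. Named sites follow a written rule: the 20 highest members, 5 on either side of the score minimum, the 10 highest shared sites and the 3 at each extreme of distance. Neighbours, pairs, the sites just outside the isolation limit, the shared sites of low vehicle score and sites of chromosomes 12 and 16 were named after their values were seen. The classification was tested on simulated lists. Planned gene and motif counts were not run. Computations used Python 3.11.15 with scipy 1.17.1 and pandas 2.3.3.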

Additional observations from a re-analysis of the deposited data

How the results depend on the processing

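Of 56 alternative values for the main counts, shares, scores and distances, 42 lay within 1.5 times the reported count or within the 95% interval of the reported share or median. The score minimum moved the most, by construction. With minimums of 10, 30 and 50 the DEM-only sites numbered 501, 117 and 38, their share was 79.0, 48.1 and 28.4%, and their median score 19.2, 42.5 and 64.2. At 50 the median shared score was 103.0. An isolation distance of 500 kb left 142 DEM-only and 62 shared sites, a share of 69.6%. The median distance to a vehicle summit was 7.11 Mb when vehicle summits of at least 10 were counted. Match distances of 100 to 5000 bp gave 223 to 225 DEM-only sites. Those wider than 500 bp could not change any isolated site. Each of the 182 vehicle summits lay within 500 bp of a DEM summit, and isolated sites had no other within 100 kb. The values at these wider distances therefore repeat the reported ones by construction, and they are counted among the 42. They say nothing about stability. On chromosome 16, DEM-only sites numbered 12 against 6 shared at a minimum of 10. At minimums of 30 and 50 they numbered 0 against 6 and 0 against 4. Their being fewer there thus held at the higher minimums but not at 10. The alternatives for chromosomes 12 and 16, and those of the distance to other DEM summits by score minimum, were chosen after seeing the data. No paired analysis was possible because vehicle and DEM were represented by a single library each, which also leaves no replicate to omit. Alternatives for motifs and gene starts were not run. The unknown depth limits every absence of a vehicle call.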
